A study of Arabidopsis thaliana with 6 samples.

Results

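The nuclear genome of Arabidopsis thaliana encodes many subunits of the chain that carries out the light reactions of photosynthesis, and the transcripts of 37 such genes, of 38064 genes listed, were examined in seedlings grown in darkness. The genes were chosen by what they encode, through their locus identifiers. No measured value entered the rule, but earlier results of these data were known when it was made. They were 13 subunits of photosystem I, 13 subunits of photosystem II and 11 genes of electron transport and ATP synthesis, namely the Rieske protein, 2 plastocyanins, 2 ferredoxins, 2 ferredoxin-NADP reductases, the gamma and delta subunits of the plastid ATP synthase, PGR5 and PGRL1A. Polyadenylated RNA was sequenced from 3 libraries of the wild type (Col-0) and 3 libraries of the mutant bdh1-1 bdh2-1, all from plants kept for 5 days in the dark. The mutant carries alleles of 2 genes for BCL-DOMAIN HOMOLOG (BDH) proteins, which the title of the series links to the chromatin remodelling complex SWI/SNF, and the design text asks what lies behind the appearance of these mutants in darkness. The sample labels name seedlings as the material and the design text names hypocotyls, so which of them was sampled cannot be told apart here. No label says that the libraries of a group came from separate cultures, so the p-values measure the spread between these libraries, which may be technical.

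Photosystem II takes electrons from water with the help of extrinsic proteins on the lumenal side of the thylakoid membrane, the cytochrome b6f complex passes them on to plastocyanin, and photosystem I lifts them to ferredoxin, from which ferredoxin-NADP reductase makes NADPH. The core subunits that bind the pigments are encoded in the plastid, and most of the peripheral subunits are encoded in the nucleus and imported. In darkness a seedling makes etioplasts in place of chloroplasts, and transcripts of many photosynthesis genes are held low until light arrives.

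Depth and labels were examined first. Library totals lay between 40876788 and 44982000 counts, and the first principal component of all tested genes, with 58.7% of the variance, separated the genotypes. The loci AT4G22320 and AT5G55210, taken for the mutated genes from memory of the literature because no file pairs a locus with the BDH names, had 143 to 169 and 575 to 755 counts in the wild type against 8 to 15 and 7 to 22 counts in the mutant. PORA and PORB, the protochlorophyllide reductases typical of dark-grown seedlings, were abundant in every library, with a summed level of 1113 to 1303 CPM (counts scaled to a common library size with TMM factors) in the wild type and 1568 to 2577 CPM in the mutant. Markers of root hairs and root tips (COBL9, EXPA7, EXPA18, PRP3 and WOX5) were near 0, with a summed level of 0.575 to 5.40 CPM in the wild type and 1.57 to 2.80 CPM in the mutant.

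All 37 genes cleared the low-count filter and were well represented in the dark, with at least 642 counts in every library. Together they took 0.869% of the counts in the wild type. Per kilobase of exon, their median level in the wild type was 164 CPM, against 7.54 CPM over all tested genes. The lowest of them, PSB28, lay at percentile 70.2 of the tested genes by this measure, and the next lowest, PGRL1A, at percentile 82.5. The level per kilobase was highest for PSBR in both genotypes, at 1062 CPM per kilobase in the wild type and 1072 CPM per kilobase in the mutant, and lowest in both for PSB28, at 17.0 CPM per kilobase in the wild type and 22.9 CPM per kilobase in the mutant.

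With an adjusted p under 0.05 in edgeR's quasi-likelihood test, 6 of the 37 genes differed, which is 16.2%, against 23.5% of the 20791 genes tested. Of these, 2 were higher (FD1 and PETC), against 12.1% of tested genes called higher, and 4 were lower (PSAF, PSAN, PETE1 and FNR2), against 11.3% called lower. The median log2 fold change (mutant over wild type) of the 37 genes was -0.058 and that of all tested genes 0.00, and the median of its absolute size was 0.21 against 0.26. A total of 13 of the 37 genes had an unadjusted p under 0.05 in the same edgeR test. The share of all tested genes at that level was not counted, here or for the groups below, while 23.5% passed even with adjustment. Such counts are therefore given as a description only. The genotypes were fully apart, without overlap, for 10 of the 37 genes, 5 of them above and 5 below the wild type, which is 27.0%, against 41.3% of all tested genes (20.8% above and 20.5% below). In tissue sampled in bulk, fewer cells of a type and less RNA per cell cannot be told apart.

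**Figure D1:**
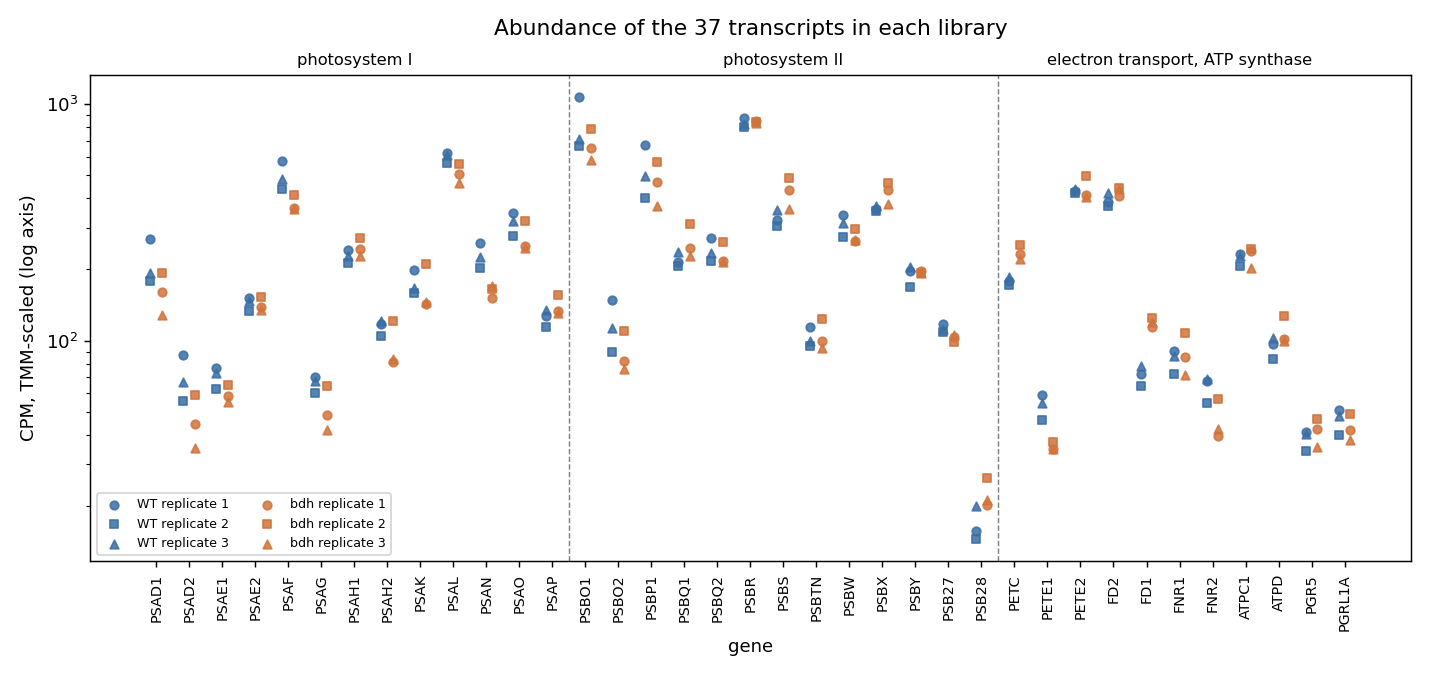
Transcript abundance of the 37 genes in each library, in TMM-scaled CPM on a log axis, with wild-type libraries in blue, mutant (bdh) libraries in orange and the replicate given by the symbol. The genes are grouped into photosystem I, photosystem II, and electron transport with ATP synthase, and FD1, PETC, PETE1, PSAF and PSAN are among the genes whose orange and blue points do not overlap.

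Of the 13 nuclear photosystem I genes, 2 were lower in the mutant (PSAN and PSAF), 0 were higher and 11 did not pass the test (15.4% called, against 23.5% of tested genes, with 11.3% lower and 12.1% higher). The log2 fold change was below 0 for 11 of 13 genes, against 49.9% of all tested genes. Its median was -0.25, its lowest value -0.60 and its highest value 0.16. The 13 genes share the same libraries, so these signs are not independent results. The summed level of the 13 genes was 3137, 2556 and 2839 CPM in wild-type replicates 1, 2 and 3 and 2323, 2752 and 2221 CPM in mutant replicates 1, 2 and 3, so the groups overlapped through mutant replicate 2. From here on, 3 values in a row are those of replicates 1, 2 and 3 in this order.

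PSAN (AT5G64040), a small lumenal subunit at the site where plastocyanin docks, had 258, 202 and 227 CPM in the wild type and 151, 165 and 169.8 CPM in the mutant. Every mutant library was below every wild-type library (log2 fold change -0.50, SE 0.109, edgeR adjusted p 0.0114). PSAF (AT1G31330), which holds plastocyanin at the same side of the complex, had 573, 436 and 483 CPM in the wild type and 365, 412 and 360.3 CPM in the mutant. Again the groups did not overlap, and the mutant mean was 0.762 times the wild-type level (log2 fold change -0.39, SE 0.120, edgeR adjusted p 0.0410). The calls differed in how far they hung on single libraries. PSAN lost its call when mutant replicate 1 was left out (adjusted p 0.0722), and PSAF lost it without wild-type replicate 1 (0.142), wild-type replicate 3 (0.0899), mutant replicate 1 (0.163) or mutant replicate 3 (0.114). PSAN overlaps AT5G64030 on the opposite strand, which had a log2 fold change of -0.33 (edgeR adjusted p 0.173), and the strand setting of the counting is not given in the sources used here.

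PSAD1, PSAD2, PSAE1 and PSAE2 form the stromal ridge on which ferredoxin docks, and none of them passed the test. PSAD2 came closest, with 87.2, 55.9 and 67.2 CPM in the wild type and 44.5, 59.0 and 35.3 CPM in the mutant. Mutant replicate 2 lay above wild-type replicate 2, so the groups overlapped (log2 fold change -0.60, SE 0.197, edgeR adjusted p 0.0519). It passed the threshold with DESeq2 (adjusted p 0.0138) and without wild-type replicate 2 or mutant replicate 2. PSAD2 overlaps its neighbour AT1G03140 on the same strand, which had a mean of 67.2 CPM in the wild type. The log2 fold change of that neighbour was -0.046 (edgeR adjusted p 0.746). PSAD1 had 269, 179 and 193 CPM in the wild type and 161, 194 and 129 CPM in the mutant. Its wild-type replicate 1 was well above the other libraries, and the groups overlapped (log2 fold change -0.40, SE 0.178, edgeR adjusted p 0.124). PSAE1 had 77.0, 62.3 and 72.9 CPM in the wild type and 58.2, 64.9 and 54.8 CPM in the mutant, with overlapping groups (log2 fold change -0.25, SE 0.107, edgeR adjusted p 0.110). PSAE2 had 152, 134 and 147 CPM in the wild type and 139, 153 and 135 CPM in the mutant. The PSAE2 levels of the genotypes were interleaved (log2 fold change -0.024, SE 0.0934, edgeR adjusted p 0.871), and its sign turned with upper-quartile factors (0.0057) and when single libraries were left out. PSAE2 overlaps AT2G20270 on the opposite strand, which was higher in the mutant, with a log2 fold change of 0.66 (edgeR adjusted p 0.00423).

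Among the subunits on the side where light-harvesting complexes bind, PSAH1 had 241, 212 and 228 CPM in the wild type and 243, 271 and 227 CPM in the mutant, and PSAH2 had 118, 105 and 121 CPM in the wild type and 81.5, 121 and 84.1 CPM in the mutant. Neither passed the test, with log2 fold changes of 0.12 (adjusted p 0.396) for PSAH1 and -0.26 (adjusted p 0.231) for PSAH2. PSAL, the partner of PSAH in the membrane, lay below the whole wild-type range in each mutant library, between 462 and 559 CPM against 562 to 620 CPM, and missed the threshold with a log2 fold change of -0.23 (adjusted p 0.133). PSAG and PSAK, which sit on the flank that binds the antenna of photosystem I, had log2 fold changes of -0.36 (adjusted p 0.102) and -0.068 (adjusted p 0.777), and PSAO had -0.21 (adjusted p 0.269). PSAP, first described as a photosystem I subunit and also known as the thylakoid curvature protein CURT1B, had 0.16 (adjusted p 0.286). None of these 4 genes separated the groups.

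None of the 13 photosystem II genes passed the test in either direction, against 23.5% of tested genes (12.1% higher and 11.3% lower), while 3 had an unadjusted p under 0.05. The genotypes did not overlap for 4 of the 13 genes (30.8%), 3 of them above and 1 below the wild type, against 41.3% of all tested genes. Their log2 fold changes lay between -0.39 and 0.43 with a median of 0.013, and their summed level was 4717, 3697 and 4096 CPM in the wild type and 4066, 4568 and 3717 CPM in the mutant. These sums overlapped, and the largest and the smallest were both in the wild type.

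The extrinsic proteins of the oxygen-evolving complex varied mostly among the libraries of a genotype. PSBO1, the manganese-stabilizing protein and the gene with the highest single value, had 1072, 662 and 709 CPM in the wild type and 653, 788 and 578 CPM in the mutant. Wild-type replicate 1 stood above all other libraries for this gene (log2 fold change -0.28, SE 0.186, edgeR adjusted p 0.304). The second copy, PSBO2, had 148, 89.7 and 113 CPM in the wild type and 82.4, 110.2 and 75.6 CPM in the mutant, with the same library at the top (log2 fold change -0.39, SE 0.187, edgeR adjusted p 0.154). PSBP1 had 522 ± 136 CPM (SD, n = 3) across wild-type libraries and 471 ± 99.9 CPM (SD, n = 3) across mutant libraries, and its log2 fold change of -0.15 (adjusted p 0.611) turned sign, to 0.069, without wild-type replicate 1. PSBQ1 had 215, 207 and 237 CPM in the wild type and 246, 310.1 and 228 CPM in the mutant, and PSBQ2 had 273, 216 and 234 CPM in the wild type and 217, 262 and 214 CPM in the mutant. Neither separated the groups, with log2 fold changes of 0.25 (adjusted p 0.167) and -0.058 (adjusted p 0.747). PSBR, which helps to hold the extrinsic proteins, was nearly flat at 833 ± 36.6 CPM (SD, n = 3) across wild-type libraries and 840.2 ± 8.48 CPM (SD, n = 3) across mutant libraries (log2 fold change 0.013, SE 0.0942, edgeR adjusted p 0.934).

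PSBS, the protein that senses lumen acidity and sets off the harmless release of excess light energy, had 325, 306 and 358 CPM in the wild type and 432, 487 and 359 CPM in the mutant. All mutant libraries were above all wild-type libraries, mutant replicate 3 by the least, and the gene missed the threshold (log2 fold change 0.37, SE 0.125, edgeR adjusted p 0.0555). PSB28, which binds an assembly intermediate of photosystem II, had 15.8, 14.5 and 20.01 CPM in the wild type and 20.2, 26.2 and 21.2 CPM in the mutant. It too was higher in every mutant library and missed the threshold (log2 fold change 0.43, SE 0.144, edgeR adjusted p 0.0566). Both passed it with DESeq2 (adjusted p 0.0253 for PSBS and 0.0371 for PSB28) and with upper-quartile factors. Each passed in only 1 of the 6 fits that left out 1 library. With length offsets, described further on, neither passed, with log2 fold changes of 0.35 for PSBS (edgeR adjusted p 0.0721) and 0.25 for PSB28 (edgeR adjusted p 0.249). Of the small membrane subunits, PSBX was above the wild type in every mutant library with a log2 fold change of 0.23 (adjusted p 0.121), which became 0.031 with length offsets (edgeR adjusted p 0.879). PSBW, PSBY and the lumenal PSBTN had log2 fold changes of -0.17 (adjusted p 0.267), 0.033 (adjusted p 0.830) and 0.034 (adjusted p 0.860) with overlapping groups. PSB27, an assembly protein of the lumen, was below the wild type in every mutant library, with -0.14 (adjusted p 0.246).

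Electron carriers held the largest differences that passed the test among the 37 genes, in both directions. Of 11 genes, 2 were higher (FD1 and PETC), 2 were lower (PETE1 and FNR2) and 7 did not pass the test, and the median log2 fold change was 0.093. The share called was 36.4%, against 23.5% of tested genes, with 12.1% higher and 11.3% lower. Their summed level was 1706, 1567 and 1751 CPM in the wild type and 1753, 1990.2 and 1709 CPM in the mutant, with overlapping groups.

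FD1 (AT1G10960), 1 of the 2 leaf-type ferredoxins, which carry electrons from photosystem I to their users in the stroma, had 72.6, 64.4 and 77.8 CPM in the wild type and 114, 125 and 119.7 CPM in the mutant. The lowest mutant library was well above the highest wild-type library, and the mutant mean was 1.67 times the wild-type mean on the fitted scale (log2 fold change 0.74, SE 0.0967, edgeR adjusted p 0.00128). The call held when each of the 6 libraries was left out in turn, with log2 fold changes from 0.68 to 0.80. The other leaf-type ferredoxin, FD2 (AT1G60950), usually the more abundant in leaves, had 385, 372 and 419.8 CPM in the wild type and 409.9, 443 and 437 CPM in the mutant. Its groups overlapped (log2 fold change 0.13, SE 0.0944, edgeR adjusted p 0.326). The gene FD1 overlaps its neighbour AT1G10950 on the same strand, so reads in the shared bases cannot be assigned by strand. That neighbour had 237 ± 14.8 CPM (SD, n = 3) across wild-type libraries and 248 ± 18.5 CPM (SD, n = 3) across mutant libraries, a log2 fold change of 0.066 (edgeR adjusted p 0.649).

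PETC (AT4G03280), the Rieske iron-sulphur protein of the cytochrome b6f complex, had 179.5, 172 and 186 CPM in the wild type and 232, 254 and 222 CPM in the mutant. All mutant libraries were above all wild-type libraries (log2 fold change 0.40, SE 0.0914, edgeR adjusted p 0.0144). The call was lost without mutant replicate 1 (adjusted p 0.0630) and with length offsets, described further on, where the log2 fold change was 0.24 (adjusted p 0.125).

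PETE1 (AT1G76100), 1 of the 2 plastocyanins, the copper proteins that bring electrons to photosystem I, had 58.7, 46.1 and 54.3 CPM in the wild type and 34.9, 37.5 and 34.9 CPM in the mutant. The 3 mutant libraries were close to each other and all below the wild type, at 0.674 times its level (log2 fold change -0.57, SE 0.105, edgeR adjusted p 0.00576). The call held without each of the 6 libraries in turn, with log2 fold changes from -0.65 to -0.49. PETE2 (AT1G20340), the more abundant plastocyanin here, had 429, 422 and 439 CPM in the wild type and 412, 499 and 405 CPM in the mutant. Mutant replicate 2 was the highest library and the other mutant libraries were the lowest, so the groups overlapped (log2 fold change 0.029, SE 0.106, edgeR adjusted p 0.862).

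FNR2 (AT1G20020), 1 of the 2 leaf-type ferredoxin-NADP reductases, had 67.4, 54.5 and 69.0 CPM in the wild type and 39.7, 56.5 and 42.3 CPM in the mutant. Mutant replicate 2 lay above wild-type replicate 2, so the groups overlapped although the test passed (log2 fold change -0.46, SE 0.145, edgeR adjusted p 0.0439). The call was lost without wild-type replicate 1 or 3 or mutant replicate 1 or 3, with adjusted p from 0.119 to 0.179, and with upper-quartile factors (0.0543). FNR1 (AT5G66190) had 90.1, 72.0 and 85.9 CPM in the wild type and 85.5, 108 and 71.5 CPM in the mutant, with overlapping groups (log2 fold change 0.093, SE 0.147, edgeR adjusted p 0.672). FNR1 overlaps AT5G66180 on the opposite strand, which was lower in the mutant, with a log2 fold change of -0.55 (edgeR adjusted p 0.00744).

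The remaining genes did not pass the test, and their groups overlapped. The log2 fold change was 0.040 (adjusted p 0.806) for ATPC1 and 0.21 (adjusted p 0.221) for ATPD, the gamma and delta subunits of the plastid ATP synthase. It was 0.11 (adjusted p 0.547) for PGR5 and -0.11 (adjusted p 0.528) for PGRL1A, which act together in cyclic electron flow around photosystem I.

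**Figure D2:**
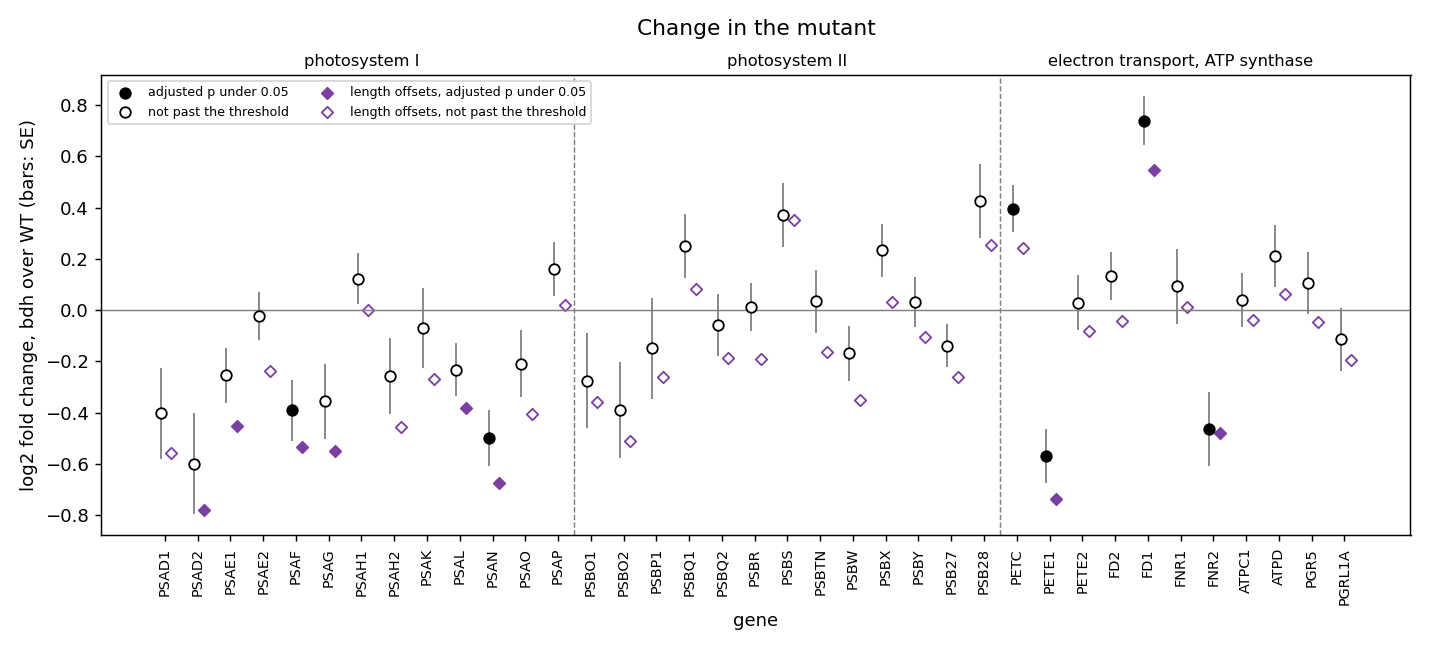
Log2 fold change of the mutant (bdh) over the wild type for each gene, with circles and bars for the estimate and its SE in the fit without length correction and diamonds for the fit with length offsets, filled where the adjusted p was under 0.05. In the fit without length correction FD1 and PETC lie above 0 and PSAF, PSAN, PETE1 and FNR2 below 0 among the filled circles, and every diamond lies below its circle.

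The DNA in front of the plastocyanin genes and PETC is shown because PETE1 had the strongest decrease that passed the test, PETE2 is its relative whose groups overlapped, and PETC is 1 of the 2 genes that rose. The 250 bases before the annotated gene start (RefSeq, build TAIR10.1) were searched whole for short motifs, so that matches inside a neighbouring gene are counted, and the stretches printed leave out the bases of a neighbouring gene. The window of FD1 lies wholly inside AT1G10950 and is therefore not shown. The bases are chr1:28554931-28555033 (minus strand) for PETE1, chr1:7043393-7043627 (minus strand) for PETE2 and chr4:1439896-1440145 (plus strand) for PETC, written 5′ to 3′ towards the gene. Capitals mark the I-box, with the letters GATAAG, which read CTTATC on the other strand, and CCAATC, which read GATTGG on the other strand.
PETE1: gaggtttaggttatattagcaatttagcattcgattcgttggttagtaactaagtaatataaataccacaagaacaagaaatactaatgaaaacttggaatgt
PETE2: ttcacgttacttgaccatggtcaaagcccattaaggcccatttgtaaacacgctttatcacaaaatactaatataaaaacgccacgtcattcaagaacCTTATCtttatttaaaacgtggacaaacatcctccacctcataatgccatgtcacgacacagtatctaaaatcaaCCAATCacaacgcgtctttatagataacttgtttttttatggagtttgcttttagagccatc
PETC: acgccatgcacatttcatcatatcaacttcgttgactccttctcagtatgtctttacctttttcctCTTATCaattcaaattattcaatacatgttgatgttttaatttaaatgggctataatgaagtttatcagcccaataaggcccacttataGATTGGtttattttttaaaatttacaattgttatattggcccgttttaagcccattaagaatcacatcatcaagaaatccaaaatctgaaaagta
PETE2 has the I-box 137 bases and CCAATC 62 bases before the gene start, and PETC has them at 184 and 95 bases. The 250-base window of PETE1 holds neither. Over all 37 genes, 8 windows held the I-box (21.6%, against 12.3% of 27443 nuclear protein-coding promoters), 5 held CCAATC (13.5% against 10.2%), 7 held the G-box CACGTG (18.9% against 6.49%), and 1 held the evening element AAAATATCT (2.703% against 2.36%). Of the 6 genes that passed the test, none held a G-box, PSAF and PETC held the I-box, and PETC held CCAATC. Both strands were searched and the CCAATC, I-box, G-box and evening element letters do not contain each other. For 18 of the 37 genes the window runs into a neighbouring gene. A match is a run of letters only, and no binding was measured.

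Pairs of related genes gave a comparison that does not depend on how libraries are scaled, because the ratio is taken within a library. In 7 of 8 pairs the ratios of the genotypes did not overlap. Each of these had an exact two-sided permutation p of 0.1, the smallest that 3 against 3 libraries allow (0.114 after Benjamini-Hochberg adjustment over the 8 pairs). How often other pairs of genes separate in this way was not counted, and of single tested genes 41.3% did. Copies can differ in exonic length, with 1300 bases for PSAH1 and 702 for PSAH2. The ratio is therefore not free of the length trend described further on. The coding sequences within a pair are 74.6% to 88.0% identical, and no gene of the 37 has a match elsewhere of at least 100 bases with 95% identity.

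FD1 counts were a fraction of FD2 counts of 0.188, 0.173 and 0.185 in the wild type and 0.277, 0.282 and 0.274 in the mutant. The ratio was higher in every mutant library, by 0.61 on the log2 scale (1.52-fold). PETE1 over PETE2 was 0.137, 0.109 and 0.124 in the wild type and 0.0846, 0.0752 and 0.0862 in the mutant, lower in every mutant library, with a log2 difference of -0.58. FNR1 over FNR2 was 1.34, 1.32 and 1.24 in the wild type and 2.15, 1.90 and 1.69 in the mutant, higher in every mutant library by 0.55. In all 3 pairs of carriers, then, the balance between the copies differed between the genotypes by more than the spread within either of them.

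The subunit pairs differed by less. PSAH1 over PSAH2 was 2.05, 2.03 and 1.89 in the wild type and 2.98, 2.23 and 2.698 in the mutant, a log2 difference of 0.40. PSBQ1 over PSBQ2 was 0.788, 0.957 and 1.01 in the wild type and 1.13, 1.18 and 1.06 in the mutant, a log2 difference of 0.30. PSAD1 over PSAD2 was 3.08, 3.20 and 2.87 in the wild type and 3.62, 3.29 and 3.66 in the mutant, a log2 difference of 0.21. In each of these 3 pairs the mutant ratios lay above the whole wild-type range. PSAE1 over PSAE2 was 0.507, 0.465 and 0.496 in the wild type and 0.420, 0.426 and 0.407 in the mutant, lower in every mutant library, with a log2 difference of -0.23. PSBO1 over PSBO2 was 7.23, 7.38 and 6.25 in the wild type and 7.92, 7.15 and 7.65 in the mutant, and here the groups overlapped (log2 difference 0.12, exact two-sided permutation p 0.3).

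**Figure D3:**
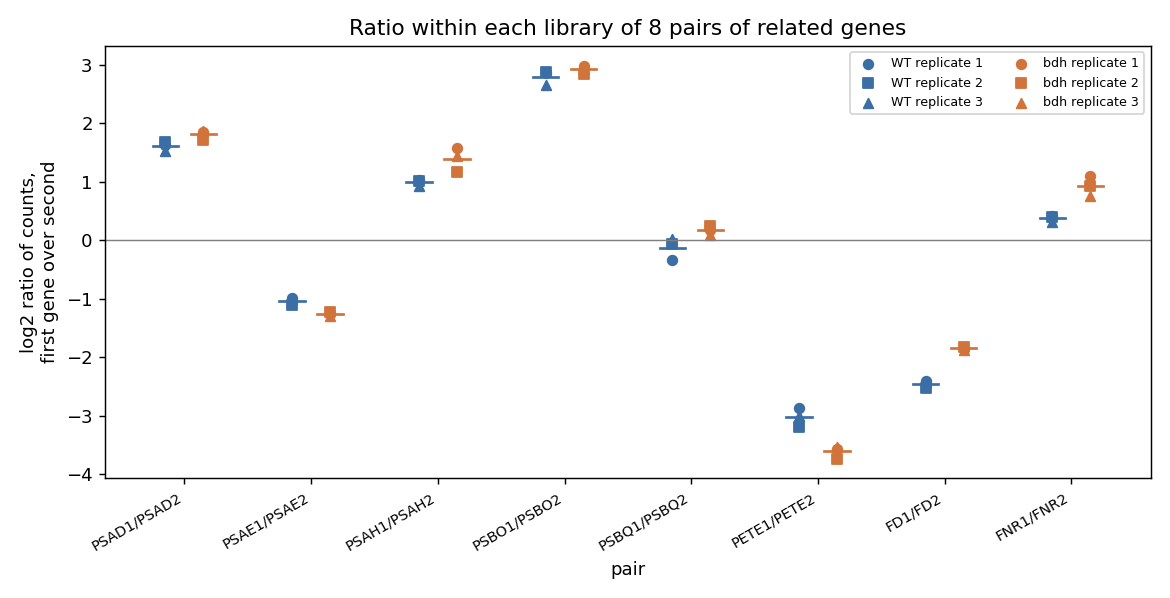
Log2 ratio of the counts of the first gene over those of the second in each library for the 8 pairs, with wild-type libraries in blue, mutant (bdh) libraries in orange and a bar at each group's mean. The groups are apart for FD1/FD2, PETE1/PETE2, FNR1/FNR2 and 4 further pairs and overlap for PSBO1/PSBO2.

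Much of the variation of the 37 genes ran between libraries of the same genotype. Within the wild type, replicate 1 had the highest level for 24 genes and replicate 3 for 13 genes, and replicate 2 for 0 genes. Within the mutant, replicate 2 had the highest level for 33 of the 37 genes, including 12 of 13 genes of photosystem I and all 11 of electron transport. Their total was 9560, 7820 and 8686 CPM in the wild type and 8142, 9310 and 7647 CPM in the mutant, or 8689 ± 870 CPM (SD, n = 3) against 8366 ± 854 CPM (SD, n = 3). The total differed by less than the spread between replicates. Leaving out wild-type replicate 2 or mutant replicate 2 raised the number of genes called lower from 4 to 7, and leaving out mutant replicate 1 brought it down to 1.

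**Figure D4:**
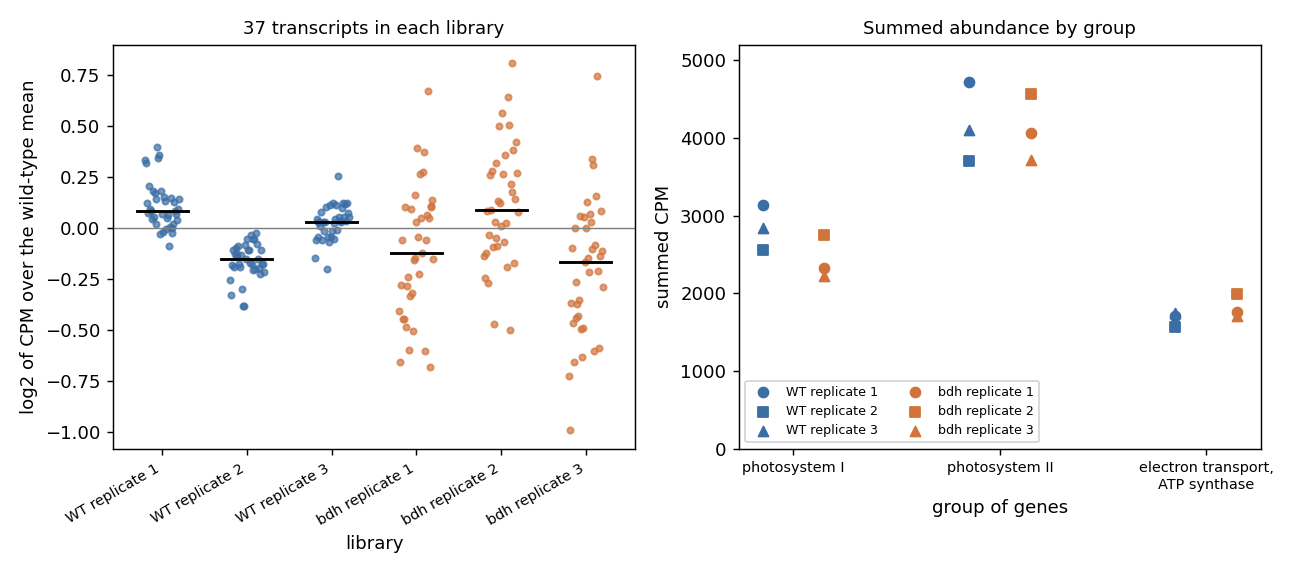
Left, the log2 of each gene's CPM over its wild-type mean in each library, with a bar at the median of the 37 genes. Right, the summed CPM of each group of genes by library, where wild-type replicate 2 and mutant replicate 2 are the low and the high library of their genotypes.

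Transcript length moved with the genotype across the transcriptome. Over 20692 genes the Spearman correlation of log2 fold change with exonic length was -0.32, given as a description of genes that share the same libraries, and over the 37 genes it was -0.0047. The 37 transcripts are short, with 607 to 1834 bases of exon and a median of 1131, against 1758 over all genes. When a smooth length trend was removed from each library, the log2 fold change of all 37 genes became lower and the median moved from -0.058 to -0.20. In that fit, which called 20.1% of 20692 genes, 1 gene was higher (FD1, log2 fold change 0.55, edgeR adjusted p 0.00651), against 10.2% of all genes, and 8 were lower, against 9.87%. PETC lost its call (0.24, adjusted p 0.125), and PSAD2, PSAE1, PSAG and PSAL were lower in addition to PSAF, PSAN, PETE1 and FNR2, so that 6 of the 13 photosystem I genes were called lower.

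Among the 37 genes, 9 in the authors' deposited table had an adjusted p under 0.05, against 24% of the 23342 genes with an adjusted p there. These were 4 higher (FD1, PETC, PSBS and PSB28, against 11.9%) and 5 lower (PSAD2, PSAF, PSAN, PETE1 and FNR2, against 12.1%). The log2 fold change of FD1 in the authors' deposited table is 0.71 (adjusted p 7.89e-10), and that of PETE1 in the same authors' deposited table is -0.54 (adjusted p 5.17e-05). DESeq2 run here on the deposited counts gave these same adjusted p values as rounded, with larger changes of 0.73 for FD1 and -0.57 for PETE1. The deposited sizes are therefore not a like measure to the changes given above.

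Further nuclear genes of the same chain, not among the 37, were counted in the same fit. Of 20 other genes of electron transport and thylakoid structure, 18 were tested and 4 were higher, 0 were lower and 14 did not pass, with a median log2 fold change of 0.21. Of all tested genes 12.1% were called higher and 11.3% lower. CURT1A, which bends thylakoid membranes at the margins of the grana, had 163, 165 and 180.2 CPM in the wild type and 246, 260.1 and 214 CPM in the mutant, without overlap (log2 fold change 0.50, SE 0.101, edgeR adjusted p 0.00833). PSB33, a protein that associates with photosystem II, PETM, a small subunit of the cytochrome b6f complex, and FDC2, a ferredoxin-like protein, had log2 fold changes of 0.41 (adjusted p 0.0219), 0.35 (adjusted p 0.0226) and 0.36 (adjusted p 0.0433). With length offsets 0 of these 18 genes were higher and 1 was lower, and the calls of PSB33, PETM and FDC2 held in 4, 4 and 2 of the 6 fits that left out 1 library. With length offsets CURT1A had an adjusted p of 0.0645. FDC1 and ATPC2 were listed at 0 in every library.

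Of 17 nuclear subunits of the thylakoid NADH dehydrogenase-like complex, which feeds electrons back into the plastoquinone pool, 16 were tested and 0 passed in edgeR, where 5 had an unadjusted p under 0.05, while DESeq2 called 3 (of all genes tested, edgeR called 23.5% and DESeq2 24%). Their median log2 fold change was 0.20 and 12 were above 0, against 50.1% of all tested genes. NDHL was listed at 0 in every library.

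Of 27 assembly factors and regulators, all were tested, 6 were higher, 1 was lower and 20 did not pass, and the median log2 fold change was 0.12. Against these 7 calls of 27 stand 23.5% of tested genes, 12.1% higher and 11.3% lower. CCB2, a factor for attaching haem to cytochrome b6, had 3.45, 4.07 and 4.402 CPM in the wild type and 6.54, 7.54 and 7.06 CPM in the mutant, without overlap (log2 fold change 0.83, SE 0.143, edgeR adjusted p 0.00449). PAM68, an assembly factor of photosystem II, and PSA3, an assembly factor of photosystem I, had log2 fold changes of 0.58 (adjusted p 0.0321) and 0.54 (adjusted p 0.00529). STN7, the kinase that phosphorylates the light-harvesting antenna in state transitions, had 29.0, 20.9 and 29.0 CPM in the wild type and 14.9, 17.7 and 13.7 CPM in the mutant, with every mutant library below the wild type (log2 fold change -0.77, SE 0.148, edgeR adjusted p 0.00682). The call of PAM68 was lost with length offsets (adjusted p 0.139) and without any 1 of the libraries other than wild-type replicate 3. With length offsets 5 of the 27 were higher and 3 lower.

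Markers of growth condition and tissue also differed between the libraries. Of all tested genes, for comparison, 12.1% were called higher and 11.3% lower. PORA and PORB were both higher in the mutant, with log2 fold changes of 0.78 (adjusted p 0.0126) and 0.78 (adjusted p 0.00862). Of 4 light-induced genes 2 were higher, namely CHS, a flavonoid enzyme, with 2.26 (adjusted p 0.000134), and ELIP1, an early light-induced protein, with 0.65 (adjusted p 0.0197). ELIP2 and PORC did not pass, with log2 fold changes of 0.047 (edgeR adjusted p 0.866) and 0.42 (edgeR adjusted p 0.123). The summed level of all 4 light-induced genes was 76.4 to 108 CPM in the wild type and 120.5 to 168 CPM in the mutant. Of 6 cotyledon and shoot markers, STM of the shoot meristem (edgeR adjusted p 0.000353) and carbonic anhydrase CA1 were higher, the latter with a log2 fold change of 0.60 (adjusted p 0.0302). The epidermal genes PDF1 and ATML1 and the guard-cell gene FAMA were lower, with log2 fold changes of -0.55 (adjusted p 0.0189), -0.32 (adjusted p 0.0374) and -0.77 (adjusted p 0.0226). With length offsets the calls of ELIP1 (adjusted p 0.0624) and ATML1 (-0.046, adjusted p 0.745) were lost. With 1 library left out, the call held in 1 of 6 fits for ATML1 and for CA1 and in 2 of 6 for FAMA. RCA, Rubisco activase, had 649, 396 and 489.7 CPM in the wild type and 349, 484 and 294 CPM in the mutant and missed the threshold (log2 fold change -0.45, SE 0.207, edgeR adjusted p 0.143). The summed level of these 6 was 1311 to 1589 CPM in the wild type and 1125 to 1429 CPM in the mutant. The 7 seed storage and oil body markers summed to 1.28, 55.7 and 99.0 CPM in the wild type and 5.65, 7.18 and 5.44 CPM in the mutant. Of the 5 tested, 3 were called lower (CRA1, CRU3 and PAP85), against 11.3% of all tested genes. The groups overlapped for each of them. Wild-type replicate 1 had 0.310 CPM of CRA1, 0.0885 CPM of CRU3 and 0.0442 CPM of PAP85. With 1 library left out, the call held in 4 of 6 fits for CRA1 and for PAP85 and in 3 of 6 for CRU3. The part of all these markers in the results for the 37 genes was not tested.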

How the data were processed

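Polyadenylated RNA from 3 wild-type and 3 bdh1-1 bdh2-1 samples was sequenced on a DNBSEQ platform from stranded libraries, as the labels' protocols state. The submitters' processing notes name STAR 2.7.10b, featureCounts, Subread 2.0.3, DESeq2 1.38 and the build TAIR10, without saying what each did. The strand setting and the annotation are not given in the sources used here. The deposited counts are whole numbers for each gene and library, neither normalized nor pooled. A second deposited file compares the genotypes. Per the file headers, it holds a signal (the normalized count averaged over libraries), a log2 fold change, the standard error of that change, a p-value and an adjusted p-value.

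The 37 genes and the further lists were chosen with earlier results of these data known. Samples were grouped by the labelled genotype. Counts were tested with edgeR 4.0.16 (R 4.3.3): filterByExpr with the group, TMM factors, glmQLFit and glmQLFTest without covariates, and Benjamini-Hochberg adjustment over the 20791 tested genes at 0.05. SEs are approximate, computed as the size of the log2 fold change over the root of the F statistic. CPM values are TMM-scaled. Ratios of related genes used a pseudocount of 1 count. Each pair had an exact two-sided permutation test over the 6 libraries, with Benjamini-Hochberg adjustment over the 8 pairs. All 37 genes are accounted for. Values in every library are given for those past the threshold and for both genes of each pair, and from each further list at most the 4 largest changes past the threshold are named. Library values of PSBS, PSB28 and RCA were added for description.

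The 37 loci, exonic lengths, overlaps (11 of 37 genes overlap another gene) and promoters come from the TAIR10.1 annotation, whereas the files use TAIR10, and no coordinates of the files were used. Copies were searched with BLAST 2.17.0. The length offsets are splines of exonic length with 4 degrees of freedom for each library. Motif shares are over nuclear protein-coding genes.

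Alternative settings comprised DESeq2 1.42.0, scaling by RLE or upper-quartile factors, the newer quasi-likelihood method, other low-count filters (none, or 10 counts in every library), length offsets, a replicate block, omission of each library, halved counts, thresholds of 1.5-fold or an adjusted p of 0.01 and, for the ratios, a pseudocount of 0.5. In simulated counts with 200 changed genes, 20625 genes were tested, 160 were called and 13 of the calls were false, with 55% of the 1.5-fold and 92% of the 2-fold changes recovered. That simulation changed far fewer genes than were called in the data, left out the genes of lowest level and held no length trend. Its shares check the code and do not give the power in these data. Of the count values from 1 to 20, 74.8% were even, so counts may not be independent molecules and the totals overstate the precision. Libraries of the same genotype differed by more than sampling noise (chi-square per degree of freedom at least 15.8), so none was counted as a duplicate.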

Additional observations from a re-analysis of the deposited data

How the results depend on the processing

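Replicate numbers are shared by the genotypes but did not pair the libraries, since deviations of same-numbered libraries correlated at 0.047, -0.28 and -0.17 over 20791 genes, and each wild-type library correlated better with a mutant library of another number. With the replicate number as a block, 2090 genes were called, among them 1 of the 37 genes higher and 1 lower, and 0, 0 and 3 of the further electron transport, NADH dehydrogenase-like and assembly genes. Of the 37 genes, in place of 2 higher and 4 lower, upper-quartile factors, DESeq2 and no filter on low counts each gave 4 higher. Length offsets gave 1 and 8, a fold change of at least 1.5 gave 0 and 0, and an adjusted p under 0.01 gave 1 and 1. Leaving out 1 library gave 1 to 3 higher and 1 to 7 lower, and the cause was not tested. Over all genes, 4882 calls became 1811 to 5558 with 1 library left out, 431 against a fold of 1.5 and 1649 at 0.01. The further electron transport list, with 4 calls, had 1 to 4 with 1 library left out, 1 with length offsets, 0 against a fold of 1.5 and 1 at 0.01. The NADH dehydrogenase-like list, with 0 calls, had 3 with DESeq2, 2 without a filter, 1 with upper-quartile factors, the newer quasi-likelihood method, a minimum of 10 counts or counts halved, and 0 to 3 with 1 library left out. The assembly list, with 7 calls, had 3 to 8 with 1 library left out, 0 against a fold of 1.5 and 3 at 0.01. Signs turned only for genes that had not passed the test: PSAE2 became 0.0057 with upper-quartile factors, which moved the median of all genes to 0.030. With length offsets the log2 fold changes became -0.19 for PSBR, -0.16 for PSBTN, -0.10 for PSBY, -0.081 for PETE2, -0.042 for FD2, -0.039 for ATPC1 and -0.045 for PGR5. With 1 library left out they ranged from -0.079 to 0.017 for PSAE2, -0.28 to 0.037 for PSAK, -0.31 to 0.069 for PSBP1, -0.16 to 0.039 for PSBQ2, -0.0057 to 0.048 for PSBR, -0.094 to 0.12 for PSBTN, -0.039 to 0.092 for PSBY, -0.072 to 0.088 for PETE2, -0.074 to 0.23 for FNR1 and -0.012 to 0.13 for ATPC1. Each of the 37 genes had at least 642 counts in every library, and the spread between libraries of a genotype exceeded the sampling noise of independent counts. Whether depth or the number of libraries, 3 a group, limited the calls was not tested.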
